A study of Mus musculus with 96 samples.

Results

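The nuclear-coded genes of oxidative phosphorylation were taken as every gene of the count tables whose symbol belongs to the Nduf, Sdh, Uqcr, Cyc1, Cox4 to Cox8 or Atp5 series (the Nduf a, b, c, s and v series with a number). The rule found 85 of the 40202 genes listed. By complex these are 36 genes of complex I, 4 of complex II, 9 of complex III, 19 of complex IV and 17 of complex V. Ndufa4 was placed in complex IV, where its protein is now assigned.

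Complexes I and II feed electrons from NADH and succinate into ubiquinone, complex III passes them to cytochrome c, and complex IV hands them to oxygen. Complexes I, III and IV pump protons out of the mitochondrial matrix, and complex V, the ATP synthase, lets them back and makes ATP. Most subunits are made in the cytosol from nuclear genes and imported, while a small set is coded in mitochondrial DNA, so each complex other than II is built from both genomes. Only part of each complex carries the redox centres or the catalytic sites, and most of the remaining subunits serve its assembly, stability and regulation.

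The samples were single cells of the mouse lung line C10, given in the labels as alveolar type II epithelium. Of the 96 libraries, 48 came from cells with no treatment (control) and 48 from cells exposed to RO-3306, which is marketed as a CDK1 kinase inhibitor, at 10 nM for 36 h. The dose is printed as the labels write it, and since the same text gives a dish size in mM, its unit is uncertain. Cells were grown in RPMI with serum and L-glutamine, sorted one by one and turned into cDNA with SMART-seq v4, in a workflow named nanoSPLITS that divides each cell's lysate so that RNA and protein can both be read. The labels name no separate cultures, so each treatment was 1 sample, no test was possible, and the spread between cells is given as a description. The title of each library has one of the letters A to D, whose meaning is not given. These 4 lettered sets served only to compare the sign of a difference between them.

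After libraries under 50000 counts or 1000 genes were left out, 29 control and 37 RO-3306 cells remained, with 59979 to 6457215 and 295005 to 5321880 counts per cell. The median number of genes with a count was 5177 in control and 6951 in RO-3306 cells. One RO-3306 cell, B3, had 56.0% mitochondrial counts, against a median of 4.42% in its group and 3.40% in control. The surfactant genes Sftpa1, Sftpc and Sftpd and the phosphate transporter gene Slc34a2, which define alveolar type II cells, had no count in any kept cell. The other 4 alveolar type II markers looked at had counts in some cells, Sftpb in 1 RO-3306 cell, Lamp3 in 8 control and 7 RO-3306 cells, Abca3 in 7 and 12, and Lpcat1 in 7 and 17. The sum of the 8 markers ran from 0 to 109 CPM over control cells (median 0.59) and from 0 to 347 CPM over RO-3306 cells (median 6.12). The 6 epithelial markers Epcam, Cdh1, Krt8, Krt18, Krt19 and Cldn4 together had 1.78 CPM in pooled control and 0.98 CPM in pooled RO-3306 cells. None of them averaged 5 CPM. Of 6 macrophage markers 2 did, Cd14 (26.4 and 45.3 CPM) and Lyz2 (29.5 and 15.8 CPM), and of 5 endothelial markers 0 did. All 6 mesenchymal markers looked at (Col1a1, Col3a1, Vim, Fn1, Acta2 and Cdh2) were detected. Their summed level ran from 1329 to 11354 CPM (counts scaled to a total of 1000000) over control cells, with a median of 4617, and from 1263 to 13886 CPM with a median of 2323 over RO-3306 cells. The part of this difference in the results below was not tested.

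Of the 85 members, 78 averaged 5 CPM or more between control and RO-3306 and were used for ratios. Each had at least 2418 counts in control and 1378 in RO-3306 cells, so the counting error of reads was small beside the spread between cells. Reads include PCR copies, so this error does not cover the sampling of mRNA molecules, which was not measured. The other 7 members are all tissue-specific isoforms of complex IV and are described with that complex. Ratios are log2 of RO-3306 over control CPM of the summed counts, with 1 CPM added to both, and intervals are exact 95% intervals that cover counting error only.

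The promoters of members called higher or lower are shown first, because genes of this set are known targets of a few shared transcription factors. A member is called where its ratio was at least 1.5-fold and had the same sign in all 4 lettered sets. Of the 9 members called, 5 have an entry in the RefSeq promoter table (GRCm38.p6). The 250 bases before the start of each are printed 5′ to 3′ on the strand of the gene, with matches of the NRF1 core motif GCGCATGC, on either strand, in capitals. Ndufa6 (chr15:82354292-82354541, minus strand), Ndufa11 (chr17:56717512-56717761, plus strand) and Ndufa7 (chr17:33824322-33824571, plus strand, the first of 2 listed starts) were higher in RO-3306 cells. Uqcrc1 (chr9:108936398-108936647, plus strand) and Sdha (chr13:74350241-74350490, minus strand) were lower.
Ndufa6: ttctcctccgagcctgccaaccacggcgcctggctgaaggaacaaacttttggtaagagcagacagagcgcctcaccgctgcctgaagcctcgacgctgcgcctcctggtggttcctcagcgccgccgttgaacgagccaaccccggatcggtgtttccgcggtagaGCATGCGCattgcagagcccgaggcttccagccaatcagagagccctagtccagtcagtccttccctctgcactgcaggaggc
Ndufa11: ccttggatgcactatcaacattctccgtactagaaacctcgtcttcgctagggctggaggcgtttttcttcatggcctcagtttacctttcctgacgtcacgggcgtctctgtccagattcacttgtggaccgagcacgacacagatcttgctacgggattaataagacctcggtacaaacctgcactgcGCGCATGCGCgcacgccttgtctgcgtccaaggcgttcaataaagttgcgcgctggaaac
Ndufa7: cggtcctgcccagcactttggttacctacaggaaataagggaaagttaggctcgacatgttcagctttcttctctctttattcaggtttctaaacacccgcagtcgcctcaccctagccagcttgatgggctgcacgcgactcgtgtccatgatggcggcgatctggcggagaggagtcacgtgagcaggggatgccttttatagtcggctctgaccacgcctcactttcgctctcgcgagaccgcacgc
Uqcrc1: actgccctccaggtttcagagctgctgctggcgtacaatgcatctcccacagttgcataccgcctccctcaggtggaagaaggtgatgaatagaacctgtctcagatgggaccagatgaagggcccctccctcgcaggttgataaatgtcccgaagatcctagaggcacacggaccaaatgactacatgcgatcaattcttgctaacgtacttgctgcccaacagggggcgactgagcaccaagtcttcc
Sdha: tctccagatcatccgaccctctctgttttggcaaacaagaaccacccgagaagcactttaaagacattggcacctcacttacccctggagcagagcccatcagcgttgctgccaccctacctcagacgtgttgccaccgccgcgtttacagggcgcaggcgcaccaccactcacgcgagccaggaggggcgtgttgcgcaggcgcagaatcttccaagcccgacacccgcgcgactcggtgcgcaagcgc

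Matches of the NRF1 core stood 83 bases before the Ndufa6 start and in an overlapping pair, on both strands, 60 and 58 bases before the Ndufa11 start. Uqcrc1 held such a pair too, at bases 31 and 33 after its start, outside the stretch printed. Over the 300-base windows of the 69 members with an entry, from 250 bases before to 50 after the start, 10 (14.5%) held the NRF1 core. Among the 7559 genes with an entry and 5 CPM or more, 6.42% held it, and of all 27025 genes 3.05%. The YY1 core AAGATGGC was found in 10 members (14.5%) and in 6.06% of that background. The ETS core CCGGAAG, which GABP binds, was found in 17 members (24.6%) and in 22.5% of the background. Both strands were searched, and none of the 3 motifs contains another. Among members used, the median log2 ratio was 0.37 for the 10 with the NRF1 core and 0.19 for the 55 without. It was 0.32 for the 17 with the ETS core and 0.20 for the 48 without, and 0.07 for the 10 with the YY1 core and 0.28 for the 55 without. A match is a description of the letters and not of a bound site.

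The transcripts of the set were slightly more abundant in RO-3306 cells as a share of all counts. Summed over the 85 members they made up 28031 CPM in control (interval 27991 to 28072) and 30929 CPM in RO-3306 cells (30893 to 30964), a log2 ratio of 0.14. By lettered set the log2 ratio of the sum was 0.03, 0.22, 0.15 and 0.28 in A, B, C and D. Over single cells the sum ran from 11576 to 36947 CPM in control with a median of 27891, and from 7787 to 42227 CPM in RO-3306 with a median of 30501. The lowest cells, control D10 and RO-3306 A11, stood apart from the rest of their groups, and A11 had a count for 33 members only. The groups overlapped widely, and 25 of 37 RO-3306 cells lay above the control median. Member by member, 53 of the 78 had a ratio above 0 and 25 below, with a median log2 ratio of 0.22 (quartiles -0.09 and 0.41). Over all 9374 genes of at least 5 CPM the median was -0.22 (quartiles -0.98 and 0.43).

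Few members passed the rule for a call. Called higher were 6 of 78 (7.69%), namely Ndufa6, Ndufb9, Ndufa7, Ndufa11, Uqcrq and Atp5mpl, beside 10.6% of all genes. Called lower were 3 (3.85%), Sdha, Atp5a1 and Uqcrc1, beside 8.51% of all genes. Both shares were under those of all genes. Without the fold requirement, 24 members were higher in all 4 sets (13% of all genes were) and 8 were lower in all 4 (10.3% of all genes were). The medians by set were 0.02, 0.26, 0.21 and 0.57 for members in A, B, C and D, and -0.08, -0.26, 0.41 and 0.24 for all genes, so in set C the members' median lay under that of all genes. Among genes of at least 50 CPM, nearer the level of the members, those medians were -0.07, -0.12, 0.12 and 0.13.

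The scaling matters for every direction given here. edgeR's TMM factors added 0.21 to each log2 ratio and DESeq2's size factors 0.24, and the median of all genes became -0.01 and 0.01. Ratios between about -0.24 and 0 therefore change sign with the scaling. With TMM factors 65 members were above 0 and 13 below, 22 were called higher (14.2% of all genes were) and 1 lower (6.4% of all genes were). With DESeq2 factors 27 were called higher (14.7% of all genes) and 1 lower (6.23% of all genes). Differences between members do not depend on these factors, apart from the pseudocount.

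**Figure D1:**
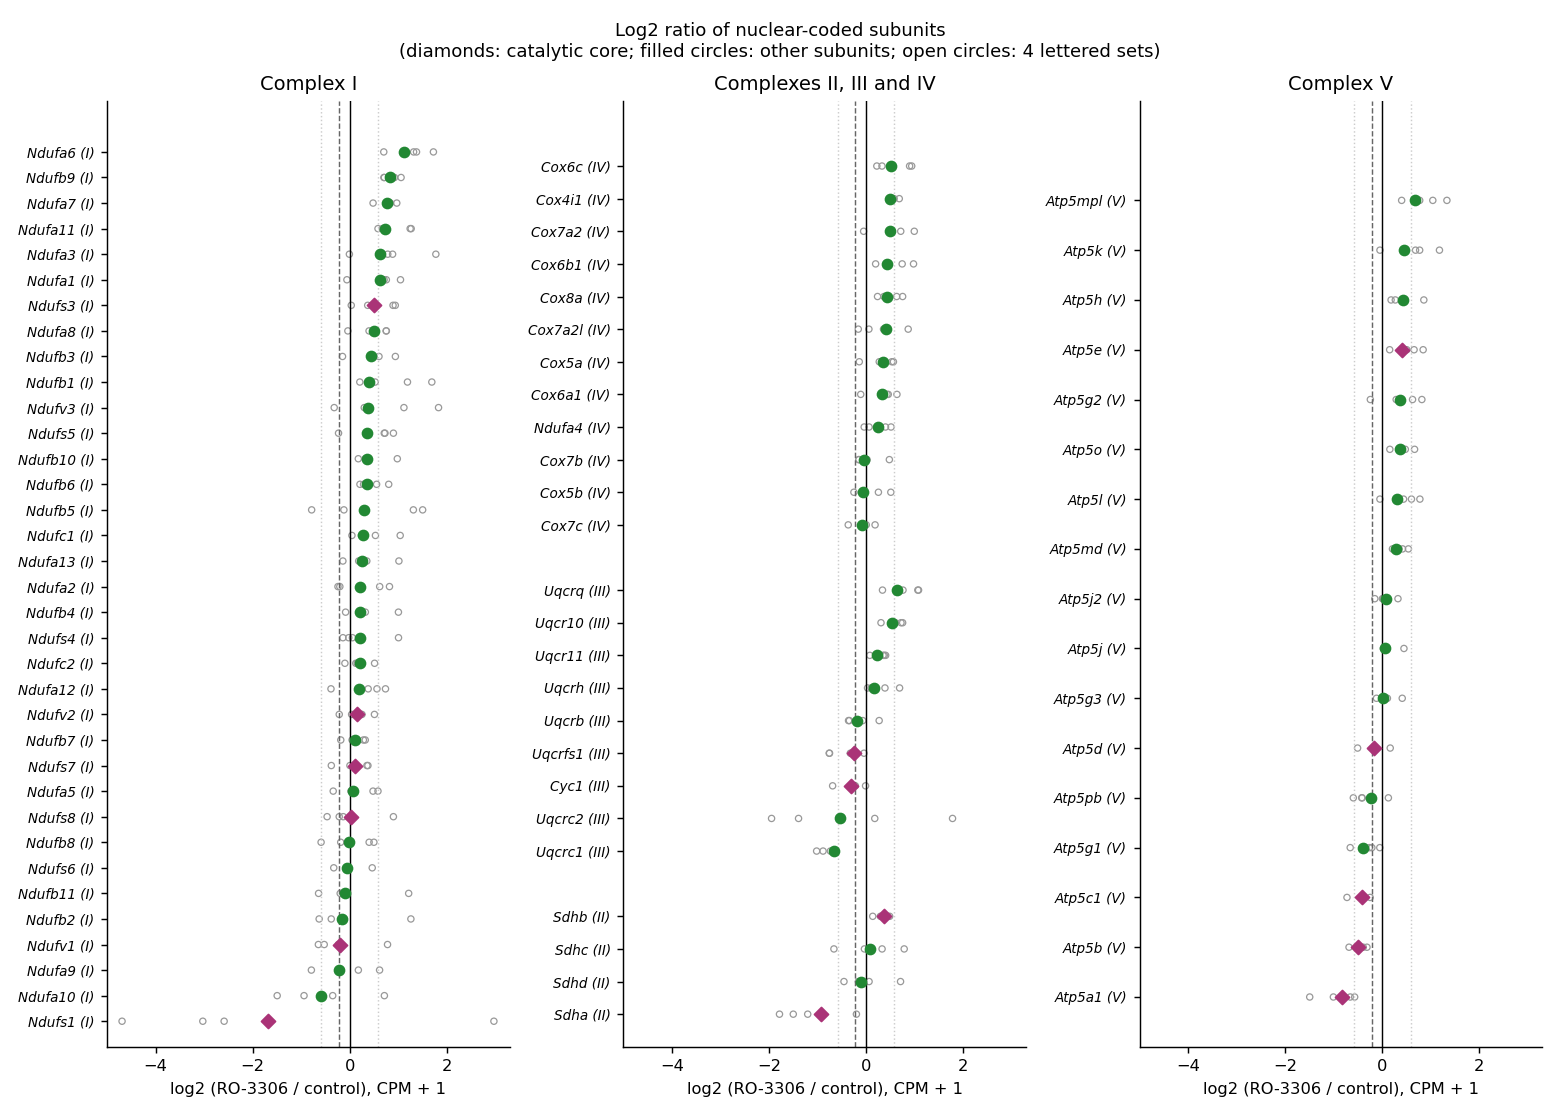
Log2 ratio of RO-3306 over control for 77 of the 78 members used, by complex. The x axis is log2 of CPM + 1 over CPM + 1. Filled symbols give the summed cells (diamonds the catalytic core, circles other members) and open circles the 4 lettered sets. The solid line is 0, the dashed line the median of all genes (-0.22), and dotted lines 1.5-fold. Most complex IV symbols lie to the right of 0 and the ATP synthase alpha, beta and gamma genes at the bottom of the third panel lie to the left of 0 in every set.

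The catalytic core and the other members differed. The core list holds 16 nuclear genes. For complex I it has 7 subunits, among them those with its flavin and iron-sulfur clusters and its quinone site. It also has Sdha and Sdhb of complex II, Cyc1 and Uqcrfs1 of complex III, and the 5 F1 head subunits of complex V. The membrane anchors Sdhc and Sdhd of complex II and the proton-carrying c-ring genes of complex V count among the other members. The core of complex IV is coded in mitochondrial DNA and has no member. The median log2 ratio was -0.19 over the core (6 higher and 10 lower) and 0.27 over the 62 other members used (47 higher and 15 lower). Without Sdhc and Sdhd, the median of the others was 0.29 over 60 genes. The difference of the medians was 0.46 on the log2 scale, and it lay between 0.30 (without set B) and 0.58 (without set A) over the alternatives of scaling, weighting, filters, length and lettered sets. Summed over genes, the core went from 6938 to 5824 CPM (log2 ratio -0.25, and -0.19, -0.33, -0.28 and -0.27 by set), while the others went from 21093 to 25104 CPM (log2 ratio 0.25). With TMM factors the median of the core became 0.02 and that of the others 0.48.

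In single cells the core made up a median of 25.0% of all member counts in control (lowest 10.1%, highest 33.4%) and 18.3% in RO-3306 (lowest 5.21%, highest 29.8%). This share does not depend on the scaling. Only 1 of 37 RO-3306 cells, D7, lay above the control median, although the ranges of the groups overlapped. The medians by set were 22.1, 26.8, 24.4 and 30.7% in control and 18.5, 18.7, 17.7 and 18.4% in RO-3306 for A to D.

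**Figure D2:**
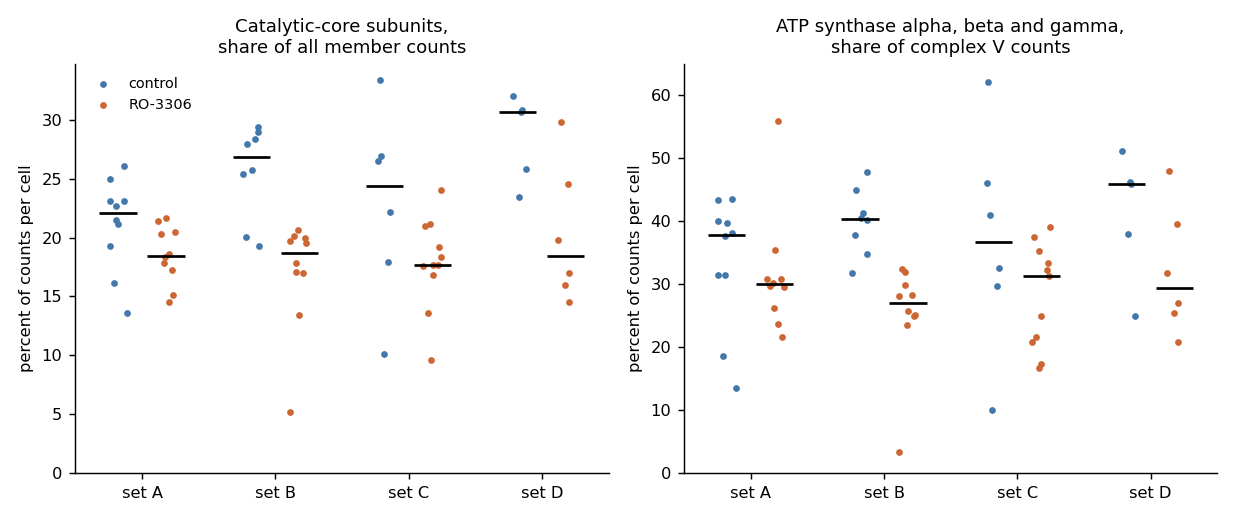
Percent of counts per cell (y axis) by lettered set (x axis), control in blue and RO-3306 in orange, 1 point a cell and bars at the medians. Left, catalytic-core subunits among all member counts. Right, the ATP synthase alpha, beta and gamma genes among complex V counts. In every set the RO-3306 median is under the control median, and single cells of the groups overlap in each panel.

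Transcript length moved with these differences. Over the 77 members used that have an annotated mRNA length, the Spearman correlation of the log2 ratio with length was -0.62, and over 8933 genes used it was -0.37. Genes share the libraries and are not independent. The 49 members under 1000 nt had a median of 0.35 and the 28 longer ones -0.19. All genes on either side of that length had medians of 0.26 (651 genes) and -0.29 (8282 genes). Among members of 1000 nt and over, the median was -0.25 for 13 core genes and -0.11 for 15 others. Under 1000 nt it was 0.10 for only 3 core genes and 0.35 for 46 others. The median mRNA was 1442 nt in the core, 683 nt in the other members and 2798 nt over all genes used. The geometric mean mRNA length per count, members left out, had a median of 1902 nt over control cells (1754 to 2772) and 1687 nt over RO-3306 cells (1502 to 2914). The core share of member counts had a Spearman correlation with this mean length of 0.51 over control and 0.43 over RO-3306 cells. After the median ratio of genes of like length was subtracted, the member median was -0.003, with 38 members above and 39 below 0. The core median was then -0.32 and that of the others 0.05. Only 1 member, Ndufa6, then stayed called higher (9.48% of all genes were called higher), and 4 were called lower (Sdha, Uqcrc1, Atp5a1 and Atp5c1; 7.1% of all genes were). Many members are shorter than the typical gene of the shortest length class, whose median was 703 nt. The part of length in the result was not tested beyond this subtraction.

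**Figure D3:**
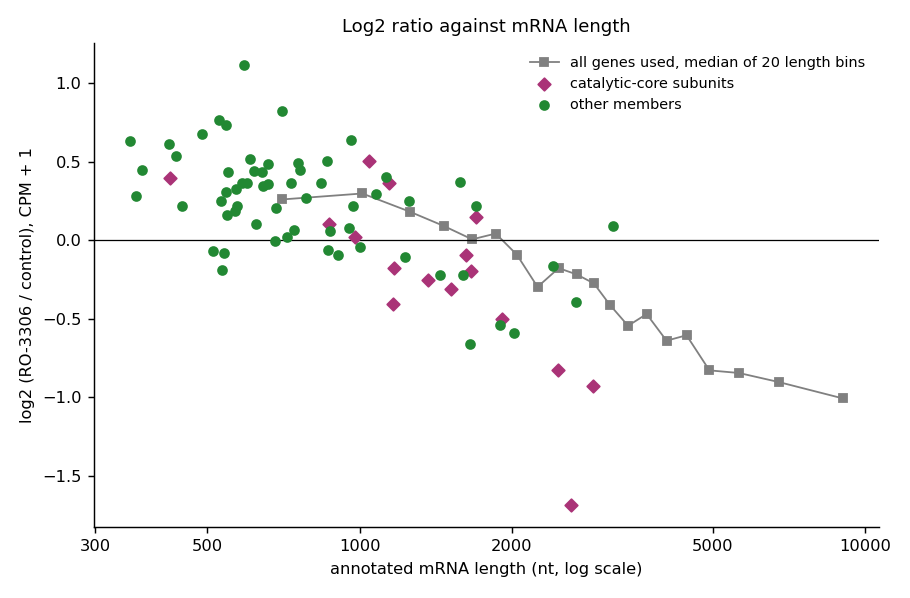
Log2 ratio of RO-3306 over control (y axis) against annotated mRNA length in nt (x axis, log scale) for 77 members, with the median of all genes in 20 classes of length (grey squares). Short members lie above 0 like other short genes, and most catalytic-core subunits (diamonds) lie under the grey line.

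Complex I is the entry point for electrons from NADH. The sum of its 36 genes went from 8942 to 10874 CPM (log2 ratio 0.28, positive in all 4 sets, from 0.13 to 0.59). In single cells the sum had a median of 8904 CPM in control (3332 to 12742) and 10759 CPM in RO-3306 (2399 to 15669), and 31 of 37 RO-3306 cells lay above the control median. The median log2 ratio was 0.22, with 27 genes higher and 9 lower, and 4 called higher (11.1%, beside 10.6% of all genes) and none lower. After the length subtraction the median was 0.01, with 18 of 35 genes above 0.

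Ndufa6, a matrix-arm subunit of the LYR family (GRCm39, chromosome 15, 82234340 to 82238492, minus strand), had the highest ratio of all members. Its level ran from 0 to 630 CPM over control cells with a median of 298, and from 0 to 1056 CPM with a median of 581 over RO-3306 cells. The RO-3306 median lay close to the control maximum, with overlap of the groups. Summed, it was 289 CPM in control (284 to 293) and 627 CPM in RO-3306 (622 to 632), 2.17-fold higher, and log2 ratios were 0.70, 1.32, 1.72 and 1.38 in sets A to D.

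Ndufb9, a LYR-family subunit bound to the membrane arm, ran from 80.6 to 860 CPM in control (median 490) and from 71.2 to 1253 CPM in RO-3306 (median 826). It was 1.77-fold higher, with log2 ratios of 0.70 to 1.06 over the sets. Ndufa7, of the matrix arm, and Ndufa11, of the membrane arm, were 1.70-fold and 1.66-fold higher. Their medians were 209 and 219 CPM over control cells and 380 and 390 CPM over RO-3306 cells.

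The 7 core subunits of complex I had a median log2 ratio of 0.02 and a sum that went from 1865 to 1951 CPM (log2 ratio 0.06, and 0.20, -0.02, -0.07 and 0.27 by set). The sum of the other 29 had 0.33, and 0.11, 0.46, 0.35 and 0.68 by set, so in set A the core had the higher ratio. Ndufs3, on the quinone-facing arm, had a log2 ratio of 0.51 and was higher in all 4 sets. Ndufv2 (0.15) and Ndufv1 (-0.20), which form the NADH-oxidising tip, and Ndufs7 (0.10) and Ndufs8 (0.02), which lead to the quinone site, lay closer to 0. Each of these 4 had both signs among the sets.

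Ndufs1, a large iron-sulfur subunit of the tip, had the lowest ratio of all members and the least stable one. It had a count in only 7 of 29 control and 14 of 37 RO-3306 cells, so its median was 0 CPM in both groups, and its highest values were 612 and 80.8 CPM. The log2 ratio of the sums was -1.68, but 2.97 in set A and -3.03, -4.69 and -2.59 in B, C and D. A share of 44.2% of its span is shared with the gene Ino80dos, and reads there may go uncounted. Ndufa10, an accessory subunit, was the second lowest of complex I at -0.59, with 0.71 in set A and -1.50 in set B.

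Complex II, succinate dehydrogenase, ties the citric acid cycle to ubiquinone and is coded wholly in the nucleus. Its sum was near the same, 1356 and 1318 CPM (log2 ratio -0.04, from -0.36 in set C to 0.24 in set D). Its subunits diverged. Sdha, the flavoprotein that oxidises succinate (chromosome 13, 74470374 to 74498359, minus strand), was 1.91-fold lower, at 165 CPM in control (162 to 169) and 86.4 CPM in RO-3306 (84.5 to 88.3). It had a count in 18 of 29 control cells (median 62.1, highest 660 CPM) and 33 of 37 RO-3306 cells (median 47.0, highest 238 CPM). The per-cell ranges overlapped, and the log2 ratio was -0.20 in set A and between -1.78 and -1.20 in the others. The call was lost when control cell A1, A7 or D9 or RO-3306 cell A9 was left out, and with TMM or DESeq2 factors. Sdhb, the iron-sulfur partner that takes the electrons from Sdha, was higher in all 4 sets (0.14 to 0.49), with a log2 ratio of 0.37. The membrane anchors Sdhc and Sdhd had 0.09 and -0.11, with both signs among the sets. Per kb of mRNA the control levels were 57.0 CPM for Sdha, 177 for Sdhb, 124 for Sdhc and 482 for Sdhd. The RO-3306 levels were 29.8, 229, 133 and 447. Counts cover whole genes with their introns and the length is that of the mRNA, so levels per kb compare genes only roughly.

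Complex III moved in both directions at once. The sum over 9 genes went from 2963 to 3129 CPM (log2 ratio 0.08), while the median log2 ratio was -0.19, and with TMM factors 0.02. After the length subtraction the median log2 ratio was -0.40, with 2 of 9 genes above 0. Uqcrq and Uqcr10, small subunits near the cytochrome b and c1 proteins, were higher. Uqcrq ran from 0 to 1135 CPM in control (median 407) and from 330 to 1326 CPM in RO-3306 (median 712), 1.56-fold higher on the sums. Its call was lost without set B or set C. Uqcr10 had a log2 ratio of 0.54 and was higher in all 4 sets (0.31 to 0.75).

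On the lower side, Uqcrc1, one of a pair of large matrix-facing subunits (chromosome 9, 108765716 to 108778709, plus strand), ran from 0 to 1744 CPM in control with a median of 362. In RO-3306 cells it ran from 0 to 797 CPM with a median of 209, and the sums were 1.58-fold lower, at 371 and 234 CPM. The log2 ratio was between -1.02 and -0.68 in the 4 sets. The call was lost without control cell C8 or D7, without set C, and with TMM or DESeq2 factors. Its partner Uqcrc2 had a log2 ratio of -0.54 from sparse counts (19 of 29 control and 31 of 37 RO-3306 cells), with -1.95 in set B and 1.78 in set C. Cyc1 (cytochrome c1) and Uqcrfs1 (the Rieske iron-sulfur protein), the nuclear-coded redox subunits, were lower in all 4 sets with log2 ratios of -0.31 and -0.25, short of the fold for a call.

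Complex IV, cytochrome c oxidase, was the complex with the highest median log2 ratio, 0.38 over its 12 genes used, of which 9 were higher and 3 lower. Its sum went from 6328 to 7773 CPM (log2 ratio 0.30, and 0.12, 0.51, 0.26 and 0.42 by set). In single cells the median was 6314 CPM in control (2301 to 8892) and 7633 CPM in RO-3306 (2746 to 12112), with 10 of 37 RO-3306 cells above the highest control cell. No single gene passed the fold for a call. After the length subtraction the median log2 ratio of the complex was 0.10, with 8 of 12 genes above 0. Cox6c had the highest ratio, from 636 to 912 CPM (log2 ratio 0.52), followed by Cox4i1, the ubiquitous form of an ATP-binding subunit, from 303 to 426 CPM (0.49). Cox4i1 was the most even, at 0.50 to 0.69 over the sets, each above its pooled value. At the low end were Cox7c (-0.08), Cox5b (-0.06) and Cox7b (-0.04), with both signs among the sets and a changed sign with TMM factors.

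**Figure D4:**
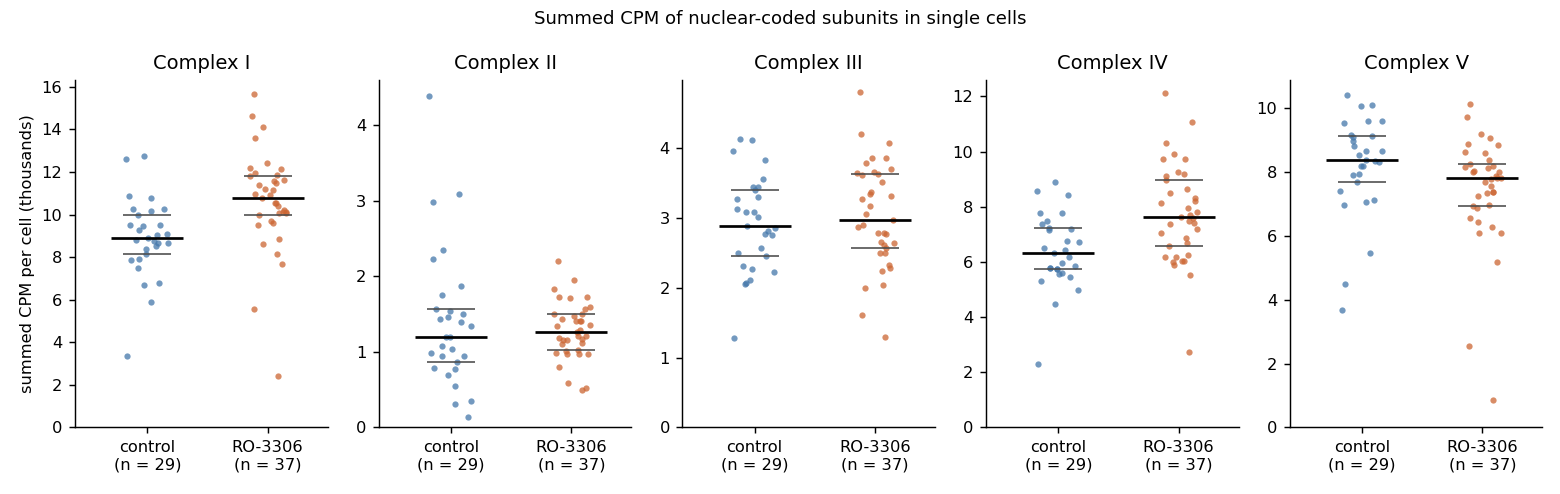
CPM summed over the nuclear-coded subunits of each complex (y axis, units of 1000 CPM) in 29 control cells (blue) and 37 RO-3306 cells (orange), 1 point a cell, with the median (thick line) and quartiles (thin lines). Complexes I and IV have higher medians in RO-3306 cells, complex V a lower one, and the groups overlap in all 5 panels.

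Several complex IV subunits exist as a ubiquitous form and a form of muscle, testis or another tissue. The 6 ubiquitous forms listed had log2 ratios of 0.49 (Cox4i1), 0.49 (Cox7a2), 0.44 (Cox6b1), 0.44 (Cox8a), 0.32 (Cox6a1) and -0.04 (Cox7b). Their sum went from 2588 to 3335 CPM. Of the 7 tissue forms, Cox4i2, Cox6a2, Cox7a1, Cox8b and Cox8c had no count in any kept cell, which allows up to 0.0454 CPM in control cells and up to 0.0323 CPM in treated cells. Shares of 91.5%, 100% and 70.6% of the spans of Cox4i2, Cox6a2 and Cox7a1 are shared with other genes, where reads may go uncounted. Cox6b2, the testis form, had 28 counts in 1 RO-3306 cell. Cox7b2 had no count in control and 5.71 CPM in treated cells, from 4 cells (A6, B1, B5 and B12), of which 1 gave 66.2% of the counts. Both ratios rest on those cells. Ndufa4 had the highest level per kb of all members, 2430 CPM and, with RO-3306, 2888 CPM (log2 ratio 0.25). Cox7a2l, which joins complexes III and IV into supercomplexes, had a log2 ratio of 0.40 with both signs among the sets.

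Complex V was the only complex whose sum was lower in all 4 sets, from 8442 to 7834 CPM (log2 ratio -0.11, from -0.13 to -0.01 over the sets). With TMM factors, which add 0.21, this turned positive. In single cells the median was 8386 CPM in control (3685 to 10413) and 7815 CPM in RO-3306 (861 to 10118), and 8 of 37 RO-3306 cells lay above the control median. The subunits were split. The median log2 ratio was 0.08 over 17 genes, -0.41 over the 5 of the F1 head and 0.29 over the other 12.

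The F1 head makes ATP on alternating alpha and beta subunits around a turning gamma stalk. Atp5a1 (alpha) ran from 0 to 1047 CPM in control (median 476) and from 0 to 744 CPM in RO-3306 (median 290), and its sum was 1.77-fold lower (log2 ratio -0.83, and -0.66, -1.01, -0.57 and -1.49 by set). Atp5b (beta; chromosome 10, 127919176 to 127926257, plus strand), with the highest CPM of all members, ran from 4.42 to 3603 CPM in control (median 1736) and from 61.0 to 2578 CPM in RO-3306 (median 1254). Its sum went from 1922 to 1359 CPM (log2 ratio -0.50, from -0.68 to -0.32 over the sets). Atp5c1 (gamma) had medians of 839 and 612 CPM over control and RO-3306 cells and a log2 ratio of -0.41 (-0.73 to -0.25). All 3 were lower in each set, also with TMM factors on the pooled sums, and the cell ranges of the groups overlapped. Together they went from 3335 to 2318 CPM (log2 ratio -0.52).

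The small F1 subunits had higher ratios. Atp5d (delta) had a log2 ratio of -0.18 with both signs among the sets, and Atp5e (epsilon) was higher in all 4 (0.40, from 0.15 to 0.84). Alpha, beta and gamma together made up a median of 39.7% of complex V counts over control cells (9.95 to 62.0%) and 29.5% over RO-3306 cells (3.37 to 55.9%). Only 2 of 37 RO-3306 cells lay above the control median. Alpha and beta occur in equal numbers in the enzyme. Their mRNA levels per kb, which compare genes only roughly, were 225 and 1003 CPM in control and 127 and 709 CPM in RO-3306. These 3 transcripts are longer than most members (median 1916 nt), and after the length subtraction their median log2 ratio was -0.59.

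Outside the head, the other 12 genes leaned upward before the length subtraction, with 10 above 0 and 2 below. After it their median log2 ratio was 0.03, with 7 of 12 above 0. Over the 17 genes of complex V the Spearman correlation of the log2 ratio with mRNA length was -0.84. Atp5mpl, a small membrane subunit, went from 146 to 234 CPM (1.60-fold, 0.40 to 1.33 over the sets). Its median was 115 CPM over control cells (0 to 641) and 209 CPM over RO-3306 cells (0 to 504). The call was lost without set B, with per-cell means and with thinned counts. Atp5k, which helps the enzyme to form dimers, was next at 0.45, with -0.05 in set B. The proton-carrying c-ring is made from 3 genes that code the same mature protein. Atp5g1 was lower in all 4 sets (520 to 395 CPM, log2 ratio -0.40), Atp5g2 had 0.37 (63.6 to 82.3 CPM) and Atp5g3 0.02 (648 to 657 CPM), the last pair with both signs among the sets. Their sum went from 1232 to 1134 CPM. These genes have near-identical copies, and in 70.3, 86.2 and 42.4% of libraries with a count their counts were fractional, so the split between them is uncertain. The same holds for the other members with fractional counts in most libraries, 19 in all, whose removal left the member median at 0.21.

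The order of the members by level was kept between the groups. Per kb of mRNA the Spearman correlation of control with RO-3306 levels was 0.96 over 77 members, which share libraries and length. Ndufa4, Cox6a1, Cox7c and Atp5md stood at the top in control, at 2430, 1467, 1315 and 1288 CPM per kb. Ndufs1, Uqcrc2 and Sdha stood at the bottom, at 19.0, 53.7 and 57.0. Counts include introns and the lengths do not, so this order of genes is rough. The median member had a count in 96.6% of control and 97.3% of RO-3306 cells. Of the 85 members, the median cell had a count for 74 in control (56 to 78) and 77 in RO-3306 (33 to 79). After thinning to 639000 reads, which left 25 control and 34 RO-3306 cells, these medians were 75 and 77.

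Cell by cell, the sums of the complexes were compared within each group. The Spearman correlation of the sums of complexes I and IV was 0.47 over 29 control and 0.77 over 37 RO-3306 cells. For complexes I and V it was 0.17 and 0.59, and for complexes IV and V 0.16 and 0.54. For complexes I and II it was 0.02 and 0.15. These values are descriptions, the points share the library total of each cell, and the difference between groups was not tested.

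The subunits coded in mitochondrial DNA, the partners of the set, had a larger shift. Of 13 genes, 12 had a ratio above 0 and 7 were called higher (10.6% of all genes were), with a median log2 ratio of 0.63 and a sum that went from 27659 to 40977 CPM. Within control cells the member sum and the mitochondrial sum had a Spearman correlation of 0.37, and within RO-3306 cells 0.36. Without RO-3306 cell B3, which had 56.0% mitochondrial counts, the sum of the mitochondrial subunits was 39670 CPM with a median log2 ratio of 0.58, and the member median was 0.22, as with it.

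Other genes of the pathway were taken from lists. Of 50 assembly factors, which build the complexes without being part of them, 45 were used, 23 above 0 and 22 below. Their median log2 ratio was 0.24 (0.09 after the length subtraction), with quartiles of -0.76 and 0.80. By complex the medians were -0.38 (14 genes), 0.63 (4), 0.13 (6), -0.44 (17) and 0.67 (4) for I to V. The rule called 9 higher (20%, beside 10.6% of all genes). These were Ndufaf3 and Timmdc1 for complex I, Sdhaf1 for complex II, Uqcc2 for complex III, Cox17, Cox18, Coa4 and Pet100 for complex IV and Tmem242 for complex V. One, Coa6 for complex IV, was called lower (2.22%, beside 8.51% of all genes). Cox17, the copper chaperone, went from 214 to 416 CPM (log2 ratio 0.95, from 0.82 to 1.44 over the sets), and Uqcc2 from 190 to 338 CPM (0.83). Ndufaf3 (3 of 29 control cells) and Coa4 (3 of 29) rest on few control cells.

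Of 12 genes that regulate mitochondrial biogenesis 9 were used, 8 below 0 and 1 above, with a median log2 ratio of -0.71 and none called. Their mRNAs are long (median 3755 nt), and after the length subtraction the median was -0.20. Nrf1, whose motif is shown above, had 29.7 and 29.5 CPM in control and RO-3306, from counts in 14 of 29 and 17 of 37 cells. Its log2 ratio ran from -0.60 to 3.16 over the sets. Gabpa had 64.0 and 34.5 CPM and Yy1 23.3 and 10.3 CPM, each with both signs among the sets. The 14 citric acid cycle genes had a median log2 ratio of -0.38, beside -0.22 over all genes, and of -0.18 after the length subtraction. Ogdh and Suclg1 were called lower (14.3%, beside 8.51% of all genes) and none higher. Among ubiquinone and cytochrome c genes, 10 of 11 used, Pdss2 was called higher and Coq5 lower. That is 10% each way, near the 10.6% and 8.51% of all genes. Cycs (cytochrome c) had a log2 ratio of 0.35, above 0 in all 4 sets. Among other entries of electrons to ubiquinone, 5 of 6 used, Sqor was called higher and Gpd2 lower (20% each way from 1 gene, beside 10.6% and 8.51% of all genes). Among the ADP, phosphate and outer membrane carriers, 6 of 6 used, Vdac1 was called lower, from 259 to 136 CPM (log2 ratio -0.92). This 1 gene is 16.7% of them, beside 8.51% of all genes, and none was called higher.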

How the data were processed

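The authors deposited expected counts per gene, 1 file for each library. Per the file headers, featureCounts 2.0.3 made them on the GRCm39 RefSeq annotation, counting over genes from end to end with their introns and giving each placement of a multi-mapped read an equal fraction. No option for strand or for reads over more than 1 gene is recorded there, so by default counts ignore strand and reads over 2 gene spans are left out. FastQC and STAR are named in the submitters' processing notes without versions. PCR copies are counted, since no molecular identifiers were used.

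Cells with at least 50000 counts and 1000 genes with a count were kept (no 2 held identical values), which left out 19 control and 11 RO-3306 libraries. Counts of kept cells were summed per treatment, scaled to 1e6 (CPM) and compared as log2 ratios with 1 CPM added. The labels name no separate cultures, so each treatment was 1 sample and no test, p-value or standard error was computed. Rates have exact Poisson intervals and ratios exact conditional intervals at the 95% level, from counts rounded to whole numbers, and limits at 0 use 3 counts. All cover the counting error of reads only, and not the sampling of mRNA molecules before PCR. Genes of at least 5 CPM mean over the groups were used, and a gene was called at 1.5-fold with the same sign in all 4 lettered sets.

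Genes named are, in each complex, the 2 highest and 2 lowest ratios among members of at least 20 CPM, the core subunits, the c-ring genes, the complex IV isoforms, members at 0 and called genes of other lists. The values of 1 core subunit are not reported here, although it is part of the counts, sums and medians. The members and lists were chosen with earlier results of these data known. mRNA lengths are those of the GENCODE M21 transcript with the longest coding sequence (84 of 85 members), in 20 length classes for the subtraction. Promoters are RefSeq windows on GRCm38.p6, matched by symbol for 69 of 85 members. Coordinates of gene spans are GRCm39 and were not converted. Alternatives covered scaling (edgeR 4.0.16, DESeq2 1.42.0), weights, depth, pseudocount, filters, cells, length, multi-mapped reads and each set or cell left out. Python 3.11.15, numpy 2.4.6, pandas 2.3.3, scipy 1.17.1, matplotlib 3.10.9 and R 4.3.3 were used. The ratio was checked on simulated counts, with changes set in genes of at least 50 CPM and independent noise. Differences between sets and a length trend were not simulated, so this check gives no error rate for the calls.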

Additional observations from a re-analysis of the deposited data

Results flagged for a closer look

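The libraries left out for low counts or few genes carried member transcripts unequally. In the 11 RO-3306 libraries left out the members summed to 10720 CPM (interval 10533 to 10910, counting error only), against 638 CPM (557 to 730) in the 19 control libraries left out. All 11 RO-3306 libraries had a member count, and 12 of the 19 control libraries did. One RO-3306 library, D4, gave 57.9% of these counts, and without it the value was 5361 CPM. Another, D5, held 66.5% of all counts of these libraries, and 87.3% of its own were mitochondrial, and without it the value was 28520 CPM. By library the members ran from 1768 to 118321 CPM in RO-3306 (median 24889) and from 0 to 48984 CPM in control (median 68.7). The highest values rest on few counts, with 3114 counts in all in RO-3306 library D11 and 40.8 in control library B11. Of the RO-3306 libraries 8 had too few counts, while D4, D5 and D10 had too few genes only. The kept cells had 28031 and 30929 CPM.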

How the results depend on the processing

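No called member changed its sign in any alternative. Log2 values are given in the order of all members (median), core, other members, then complexes I, II, III, IV and V. With TMM factors they were 0.43, 0.022, 0.48, 0.43, 0.20, 0.018, 0.59 and 0.29, the sum of members 0.35, and 22 members were called higher and 1 lower. With DESeq2 size factors they were 0.45, 0.047, 0.51, 0.45, 0.23, 0.042, 0.61 and 0.32, the sum 0.38, and the calls 27 and 1. With the median of genes of like length subtracted they were -0.0032, -0.32, 0.048, 0.011, -0.11, -0.40, 0.10 and -0.18, with 1 called higher. With per-cell means the median was 0.19, core -0.12, others 0.24, complex I 0.19, II -0.15 and III -0.22, and the sum 0.12. With thinned counts the core was -0.16, the others 0.30, complex II -0.065 and III -0.093, and the sum 0.13. With totals without mitochondrial genes the others were 0.30, complex II 0.016 and the sum 0.17. Without members of mostly fractional counts complex III was -0.25, IV 0.35 and the sum 0.16. With Ndufa4 in complex I, complex IV was 0.40. Leaving out a lettered set, or a kept cell (added after seeing the data), gave 0.16 to 0.30 for all members, -0.25 to -0.10 for the core, 0.20 to 0.40 for the others and 0.10 to 0.21 for the sum. It gave 0.17 to 0.42, -0.081 to 0.091, -0.25 to 0.0042, 0.22 to 0.45 and 0.047 to 0.15 for complexes I to V. Members called higher were 5 to 15 and called lower 2 to 5, with 15 and 5 without set A. Without set A fewer sets had to share a sign, and calls rose over all genes too. Of 9285 genes used, 1385 were then called higher and 1179 lower, beside 991 and 798 of 9374 with all sets. The cause of these shifts was not tested, apart from the scaling, which adds a constant. Pseudocounts of 0.1 and 5 CPM, a minimum of 50 CPM or none, and stricter rules for cells moved none of these beyond counting error. For a median, the limits compared were the medians of its genes' single-gene limits, which are not a counting interval of the median. Of the single-gene values, 230 moved beyond counting error and 207 did not. No rows of pseudogenes that carry a member's symbol were found, so adding their counts was not run. No paired analysis was possible because the results come from no test. With 1 sample a treatment and no separate cultures, no difference here could be set against a spread between samples, whatever the depth of the cells.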
